A study of Mus musculus with 5 samples.

Results

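Early pachytene spermatocytes are male germ cells in the first part of the long pachytene stage of meiosis. Here they were the barcodes of 3 single-cell RNA libraries that a rule on a few genes picked out, so the members were chosen by the measured UMIs of those genes, which are given below as a description only. A barcode had to hold at least 1000 UMIs (unique molecular identifiers, 1 per captured RNA molecule), at least 500 genes and under 20% mitochondrial UMIs. It had to hold at least 4 UMIs of Psma8, Gml and Piwil1 together, with at least 2 of these 3 genes detected, no UMI of the later genes Pou5f2 and Mesp1, and at most 1 UMI of the spermatid genes Acrv1, Spaca1 and Pdilt. The rule kept 715 of the 46451 barcodes of the series, with 604 cells at 350.4 h, 35 at 556.8 h and 76 at 763.2 h. They are called members below.

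The study took whole testes of mice whose spermatogenesis had been synchronized, at 0 h (titled Control), 144 h (EP1), 350.4 h (EP2), 556.8 h (EP3) and 763.2 h (EP4), with 1 library per time. The times were set to meet the same stages of the epithelial cycle again and again, and cells were released with collagenase and DNase. All samples, the control included, were synchronized, but the labels used here name no agent, strain, genotype, age or number of animals. The 350.4 h members are taken as the first wave of meiosis and are set against those of 556.8 and 763.2 h. With 1 library per time there was no replicate and no test, and each 95% interval covers counting error only. Differences therefore describe these libraries and not the times they were taken at.

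In pachytene the paired chromosomes are held together by the synaptonemal complex, crossovers mature, and the X and Y chromosomes are enclosed in the sex body, where their genes are silenced. Genes that the X can no longer supply are then replaced by autosomal copies, and the cell begins to store RNAs of the sperm tail, the acrosome and the germline energy enzymes. The PIWI protein made from Piwil1 carries pachytene piRNAs, whose precursor genes are switched on by the transcription factor A-MYB, the product of Mybl1. Psma8 encodes the germ cell form of a proteasome core subunit, Gml a membrane-anchored protein of the Ly6 family, Sycp3 a lateral element protein of the synaptonemal complex, and Stambp a deubiquitinase.

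The promoters of the markers are shown because Piwil1 is a gene of the pachytene programme just described. The tables of RefSeq promoters (GRCm38.p6) held 3 of the 5 marker genes. Each line gives the 250 bases before the start, read in the direction of the gene, with matches to the A-MYB type motif CAGTT, on either strand, in capitals, and with all of GGCAGTT in capitals where the longer form was matched. Every match to the longer form also counts as a match to the shorter one.
Piwil1: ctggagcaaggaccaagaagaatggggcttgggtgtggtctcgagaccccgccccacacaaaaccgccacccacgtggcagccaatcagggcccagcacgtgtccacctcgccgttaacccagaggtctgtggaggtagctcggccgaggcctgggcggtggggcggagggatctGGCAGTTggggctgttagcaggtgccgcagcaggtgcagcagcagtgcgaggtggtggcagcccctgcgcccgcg
Stambp: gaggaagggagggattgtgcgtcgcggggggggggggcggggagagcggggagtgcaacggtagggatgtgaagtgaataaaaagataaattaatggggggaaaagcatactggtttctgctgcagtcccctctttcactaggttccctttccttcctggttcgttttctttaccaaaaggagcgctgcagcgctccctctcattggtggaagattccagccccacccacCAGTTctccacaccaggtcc
Sycp3: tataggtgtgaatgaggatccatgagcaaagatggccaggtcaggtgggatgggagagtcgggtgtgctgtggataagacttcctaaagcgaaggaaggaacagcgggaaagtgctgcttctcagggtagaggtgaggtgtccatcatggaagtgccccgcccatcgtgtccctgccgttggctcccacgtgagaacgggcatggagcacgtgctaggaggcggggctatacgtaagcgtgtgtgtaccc
The windows lie at chr5:128735996-128736245 on the plus strand for Piwil1, at chr6:83572505-83572754 on the minus strand for Stambp and at chr10:88459337-88459586 on the plus strand for Sycp3. Piwil1 held the longer motif, whose CAGTT part began 73 bases before the start. Stambp held CAGTT 20 bases before its start, and the Sycp3 window held neither form. Over all 32851 promoter windows, 39.1% held CAGTT and 3.33% held GGCAGTT on either strand, so the short form is common. A match describes letters in the window and is not evidence of binding.

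The first wave was far richer in members, that is, in barcodes that met the rule. They made up 12.5% (11.5 to 13.4) of the 4848 barcodes that passed the content limits at 350.4 h, 0.401% (0.279 to 0.557) of 8739 at 556.8 h and 0.662% (0.522 to 0.828) of 11475 at 763.2 h. In time order, 1168, 1554 and 971 barcodes met the threshold on the 3 marker genes. Of these, 680, 40 and 118 were free of Pou5f2 and Mesp1 UMIs. Outside the members, Mesp1 was detected in 24.1, 93.6 and 78.1% of the barcodes that passed the content limits. The shares are therefore those of barcodes that met the rule and not a count of early pachytene cells. The median depth of barcodes that passed the content limits was 6321, 6031 and 3075 UMIs in time order, and the part of depth and of free RNA in these shares was not tested. Members had a median of 6253 UMIs at 350.4 h, 9596 at 556.8 h and 7498 at 763.2 h. Their summed UMIs were 8941844, 381222 and 819005, and at 350.4 h 201 cells of at least 15000 UMIs gave 78.1% of the sum. The 3 libraries shared 8, 19 and 28 barcode sequences pair by pair, and no member's barcode was shared.

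At the edge of the rule stood the barcodes with exactly 4 marker UMIs, just inside, and those with 3, just outside. At 350.4 h those inside had a median of 2898 UMIs and those outside 11663, so the 2 sets differed in depth. The 117 members just inside at 350.4 h held 434 CPM (counts per 1000000 summed UMIs) of Sycp3 and 1.90% X-linked UMIs, and the 191 barcodes just outside held 417 CPM and 2.05%. In the 9 inside and 18 outside at 556.8 h Sycp3 stood at 2726 and 2353 CPM, and in the 12 and 15 at 763.2 h at 2419 and 2009 CPM.

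The label was checked on Sycp3 and Stambp, the 2 markers that the rule did not use, against neighbouring stages of the same library. The earlier stage (leptotene and zygotene rule) needed at least 3 UMIs of Prdm9, Meiob, Dmc1 and Hormad1, and the later stage (late pachytene and diplotene rule) at least 2 UMIs of Pou5f2 and Mesp1. The genes of these rules are left out of all comparisons between stages. Earlier barcodes numbered 376, 74 and 51 and later ones 333, 6201 and 2633 in time order. The 6201 later barcodes at 556.8 h stand beside 8739 that passed the content limits. Mesp1 was detected in 93.6% of barcodes outside the members there and in 78.1% at 763.2 h, against 24.1% at 350.4 h. At 556.8 and 763.2 h the late pachytene and diplotene name of the later set therefore rests on its rule. Sycp3 stood at 1718 CPM in members, 380 in the earlier stage and 947 in the later stage at 350.4 h. At 556.8 h it stood at 3282, 1754 and 506 CPM, and at 763.2 h at 2810, 1282 and 514 CPM, in the same order. Sycp3 was thus highest in the members of all 3 libraries. Stambp stood at 290 CPM in members against 19.2 in the earlier stage at 350.4 h, 113 against 16.1 at 556.8 h and 309 against 6.18 at 763.2 h. Its level in the later stage was 385, 50.0 and 94.5 CPM, so at 350.4 h it was no lower there than in members. At 556.8 h 39 of the 43 Stambp UMIs of members lay in 2 cells of at least 15000 UMIs. Sycp3 thus went with the label in the sum of each library. Stambp set members above the earlier stage in each library, but not above the later stage at 350.4 h. The next values show members that go against the label.

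The members are described below in 2 ranges, set by a limit on the share of their UMIs that came from X-linked genes. Per cell the median X-linked share was 0.262% at 350.4 h, 1.52% at 556.8 h and 0.485% at 763.2 h, with quartiles of 0.147 and 0.666%, 0.311 and 2.29%, and 0.268 and 0.824%. In the earlier stage the medians were 2.20, 2.03 and 2.02%, and in the later stage 0.0877, 0.284 and 0.696%. A share of 1% or more was found in 121 of 604 members at 350.4 h (20.0%), in 21 of 35 at 556.8 h (60%) and in 18 of 76 at 763.2 h (23.7%). The 1% limit was chosen after these values were seen, it makes a range and not a cell type, and 24, 3 and 10 members lay within 0.25 percentage points of it.

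**Figure D1:**
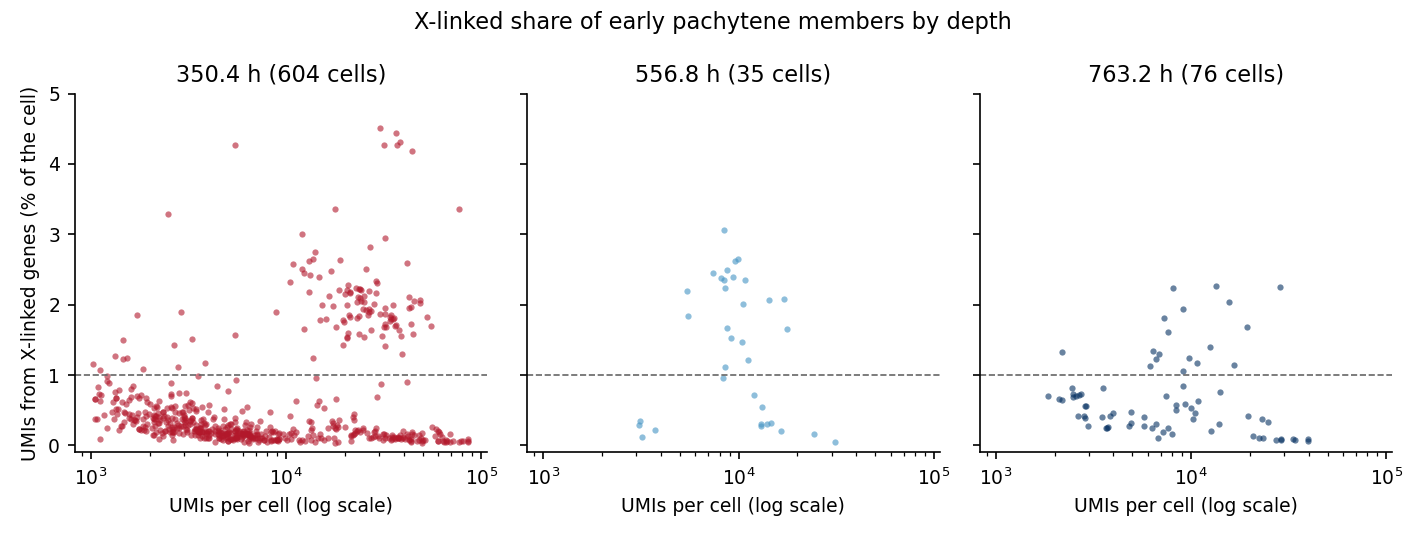
Each point is 1 member, with its UMIs on a logarithmic horizontal axis and the percent of its UMIs from X-linked genes on the vertical axis, in 1 panel per library; the dashed line is 1%. At 350.4 h 121 of 604 members lie above the line, 39 of them among the 66 members of 20000 to 30000 UMIs, while at 556.8 h 21 of 35 lie above it.

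Sycp3 and Stambp, the 2 markers outside the rule, were detected among members with under 1% X-linked UMIs in each library. These members numbered 483, 14 and 58 in time order. Sycp3 stood at 2302, 3456 and 2532 CPM and Stambp at 409, 242 and 403 CPM, the 556.8 h value resting on 5 of 14 cells, 2 of which held 39 of its 42 UMIs. Of the rule's own genes, Psma8 stood at 667, 496 and 618 CPM, Gml at 772, 785 and 610 CPM and Piwil1 at 794, 606 and 823 CPM. Dmrt1, a transcription factor of spermatogonia, stood at 2.65, 0 and 0 CPM in them, and the Sertoli list of 13 genes summed to 389, 185 and 193 CPM. RNA of other cells was not absent: the spermatid RNA list summed to 167, 5465 and 6153 CPM, and the red blood cell list to 959, 0 and 0 CPM, nearly all of it in 1 cell.

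Members with 1% or more X-linked UMIs were of different kinds at the 2 ends of the series. At 350.4 h these 121 cells had low Sycp3 (505 CPM) and low Stambp (41.9 CPM), and the rule's own genes Psma8, Gml and Piwil1 stood at 67.0, 82.2 and 114 CPM. Dmrt1 stood at 168 CPM in them and was detected in 92 of 121 cells of a median 23597 UMIs, against 16 of the 483 members with under 1%, of a median 5065 UMIs. Crabp1, a retinoic acid binding protein of spermatogonia, stood at 227 CPM and Uchl1, a spermatogonial deubiquitinase, at 545 CPM. The earlier-stage barcodes of the same library held 187 CPM of Dmrt1, 196 of Crabp1, 435 of Uchl1 and 380 of Sycp3. These genes thus go against the leptotene and zygotene name of that set at 350.4 h as well, and the name there rests on its rule. Of these 121 cells 60 had exactly 4 marker UMIs. Their genes go against the label of early pachytene, and they are called by their X-linked share. A Scrublet doublet score of 0.25 or more was found in 20 of them (16.5%) and in 15 of the 483 others (3.11%). Their Sertoli list summed to 3422 CPM, and to 298 CPM in the 94 cells with under 0.1% of UMIs from somatic lists, where the spermatogonial list stood at 1542 CPM. All 7 members with an X-linked share of 4% or more were among the other 27. The part of doublets, free RNA and somatic cells in these values was not tested.

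At 556.8 and 763.2 h the members with 1% or more X-linked UMIs were rich in synaptonemal complex RNA. Sycp3 stood at 3136 CPM in the 21 cells of 556.8 h and at 3694 CPM in the 18 of 763.2 h. Dmrt1 stood at 67.3 and 15.3 CPM, detected in only 2 of the 21 cells and 2 of the 18. The leptotene and zygotene list, which holds 15 genes, summed to 2477 CPM in them against 1235 in the members below 1% at 556.8 h, and to 1982 against 717 CPM at 763.2 h. Prss50, a serine protease gene of early meiosis, stood at 510 against 214 CPM at 556.8 h and 337 against 96.3 CPM at 763.2 h. Stambp stood at 4.81 and 10.2 CPM, from 1 and 2 UMIs. Their X-linked share as a sum was 2.06% and 1.67%, beside 2.06% and 2.02% in the earlier stage. Of the rule's own genes, Psma8 stood at 178 and 189 CPM, Gml at 303 and 388 CPM and Piwil1 at 106 and 40.9 CPM. In members below 1% these stood at 496 and 618, 785 and 610, and 606 and 823 CPM. Exactly 4 marker UMIs were held by 8 of the 21 cells and 4 of the 18. Low Stambp and the higher leptotene and zygotene list go against the label of early pachytene in these cells, while Sycp3 does not. At 763.2 h their Sertoli list summed to 3500 CPM, and to 335 CPM without the 2 cells rich in somatic genes.

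**Figure D2:**
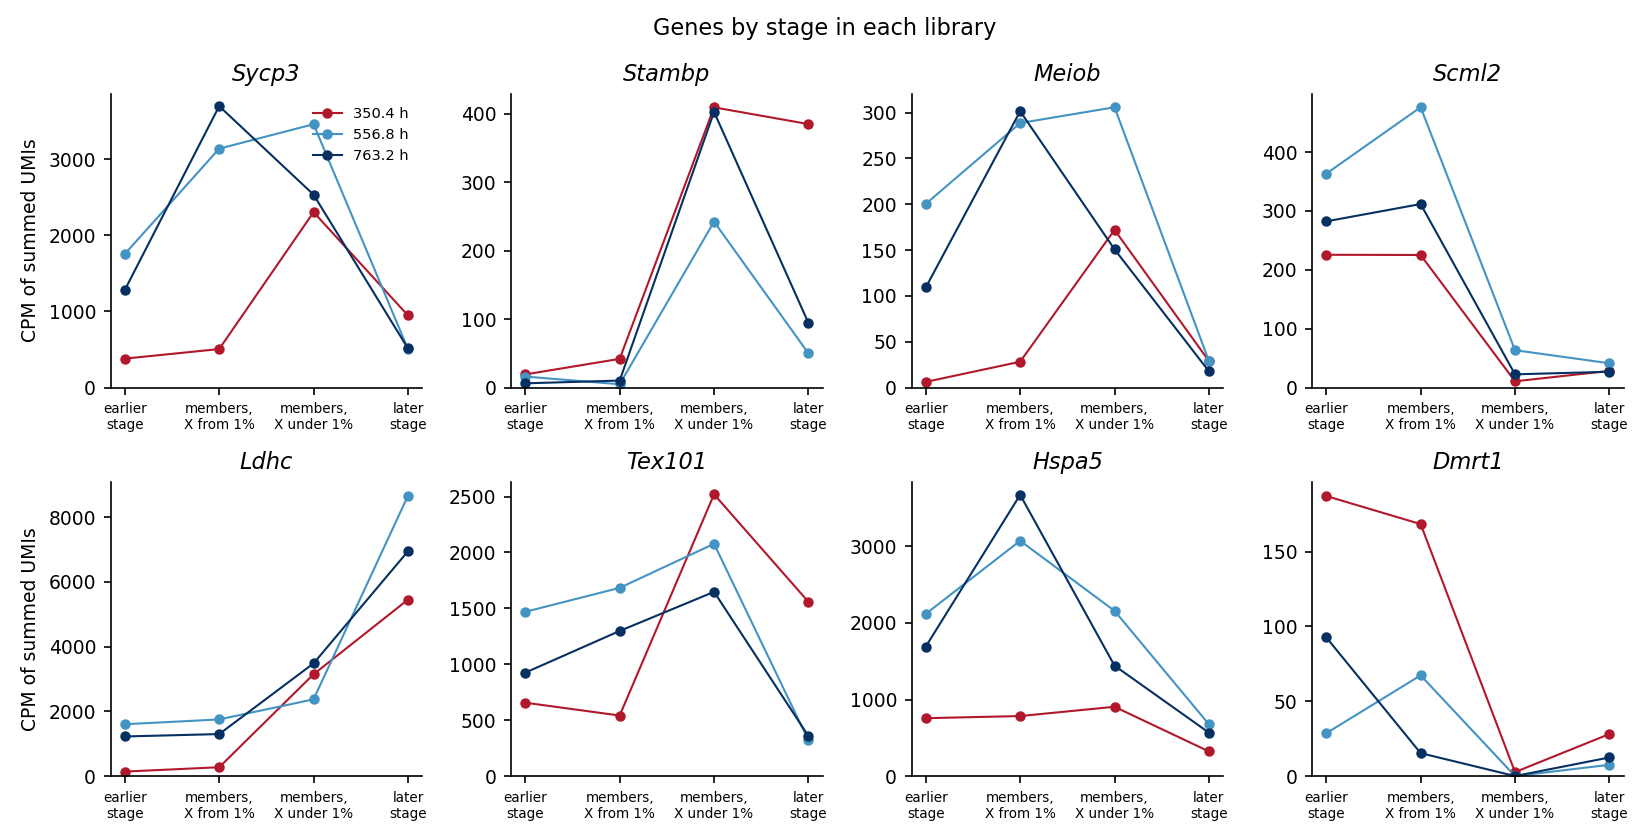
Level of 8 genes (vertical axis, CPM of summed UMIs, from 0) in 4 sets of barcodes of each library, ordered from the earlier to the later stage; lines join the sets of 1 library and carry no error bars. At 350.4 h the members with 1% or more X-linked UMIs stand near the earlier stage for Sycp3 and Dmrt1, while at the later times their Sycp3 is 3136 and 3694 CPM. Meiob is a gene of the earlier rule, so its level in the earlier stage is no finding.

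Against the earlier stage of its own library, the 350.4 h member sum had lower levels of most X-linked genes that were compared. A gene was compared where 1 of the 2 sums held at least 50 UMIs and was called where its whole interval lay beyond 2-fold. Of all genes compared at 350.4 h, 16.8% were higher in members and 10.7% lower. Of 343 X-linked genes, 204 were lower and 18 higher, with a median log2 ratio of -1.59 beside -0.15 over all 10181 genes. At 556.8 h 13 of 54 X-linked genes were lower and none higher (background 3.69% lower, 2.21% higher, of 2630 genes), and at 763.2 h 35 of 50 were lower and none higher (5.18% lower, 7.30% higher, of 3494 genes). Since the smaller sums left fewer genes to compare, these counts are not set against each other. The leptotene and zygotene list had 9 of 12 genes lower at 350.4 h, 2 of 6 at 556.8 h and 4 of 7 at 763.2 h. Zcwpw1, a histone reader that acts with PRDM9, stood at 143 CPM in members and 326 in the earlier stage at 350.4 h, 202 and 896 at 556.8 h, and 101 and 435 at 763.2 h. It was lower in the members of all 3 libraries, with ratios of 0.439 (0.410 to 0.470), 0.225 (0.175 to 0.287) and 0.233 (0.179 to 0.302).

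The axoneme, germline energy, piRNA, acrosome and autosomal retrocopy lists had genes higher and none lower in members than in the earlier stage at 350.4 and 763.2 h. Some other lists were mixed. The axoneme and intraflagellar transport list had 12 of 14 genes higher at 350.4 h, 1 of 5 at 556.8 h and 4 of 12 at 763.2 h. Meig1, needed for the manchette of spermatids, stood at 2499 CPM in members and 139 in the earlier stage at 350.4 h, at 2072 and 1533 at 556.8 h, and at 3237 and 1401 at 763.2 h. Germline energy isozymes were higher in 9 of 12, 2 of 8 and 6 of 12 genes. Ldhc, the sperm lactate dehydrogenase, stood at 2212 against 139 CPM at 350.4 h (ratio 15.9, 15.0 to 17.0), 2033 against 1601 at 556.8 h (1.27, 1.15 to 1.40) and 2961 against 1224 at 763.2 h (2.42, 2.21 to 2.65). Levels in members ran from 2033 to 2961 CPM, and the level of the earlier stage was lowest at 350.4 h, where that set held spermatogonial RNA. The piRNA list had 12 of 21, 2 of 8 and 6 of 15 genes higher and none lower in any library. Acrosome genes were higher in 10 of 12, 1 of 7 and 2 of 12, with none lower. Autosomal retrocopies of X-linked genes were higher in 7 of 8, 0 of 5 and 4 of 6, with none lower. Recombination genes were higher in 10 and lower in 6 of 25 at 350.4 h, the sex body list higher in 4 and lower in 3 of 15, and cohesins higher in none and lower in 6 of 15. Lists of other cells moved in the same comparison, with 10 of 10 Sertoli, 3 of 3 Leydig and 4 of 4 red blood cell genes higher in members at 350.4 h. At 763.2 h 5 of 6 Sertoli genes were higher. Of the spermatid RNA list none was higher in any library, and 6 of 12 genes were lower at 763.2 h. Its 12 genes summed to 114 CPM in the earlier stage at 350.4 h, 9301 at 556.8 h and 21994 at 763.2 h, and its part in these gaps was not tested.

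Against the later stage, members held more synaptonemal complex RNA at 556.8 and 763.2 h and less RNA of the late pachytene and diplotene list in all 3 libraries. The share of all genes higher in members was 7.17% at 350.4 h, 11.3% at 556.8 h and 9.47% at 763.2 h, and the share lower was 4.88%, 4.62% and 6.43%. Of 10 synaptonemal complex genes, none was called at 350.4 h, 7 were higher at 556.8 h and 6 at 763.2 h. Tex101, a surface glycoprotein of germ cells, stood at 1876 CPM in members and 1558 in the later stage at 350.4 h, 1862 and 320 at 556.8 h, and 1564 and 358 at 763.2 h. The late pachytene and diplotene list was lower in 5 of 15, 9 of 16 and 9 of 16 genes and higher in none. Germline energy isozymes were lower in 3 of 12, 5 of 14 and 5 of 14. Ldhc was lower in members of every library, with ratios of 0.406 (0.400 to 0.412), 0.235 (0.218 to 0.252) and 0.426 (0.409 to 0.444). The spermatid RNA list was higher in members in 6 of 8 genes at 350.4 h and lower in 6 of 12 at 556.8 h and 10 of 12 at 763.2 h. Sertoli genes were higher in 10 of 10 at 350.4 h, 1 of 11 at 556.8 h and 5 of 9 at 763.2 h, and their part in these values was not tested. An X-linked share of 1% or more was found in 111 of the 333 later-stage barcodes at 350.4 h, 1397 of 6201 at 556.8 h and 656 of 2633 at 763.2 h. The part of these in the values was not tested. In time order Sycp3 stood at 947, 506 and 514 CPM in the later stage. It stood at 771, 487 and 383 CPM in the barcodes outside the members. The counts therefore set members against barcodes that met the later rule, and whether these were late pachytene cells was not tested.

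The X-linked share of the later stage was also looked at within limits that use the share itself, so the values are a description. With no limit, the per-cell median at 763.2 h was higher in the later stage (0.696%) than in members (0.485%). Among barcodes of at least 5000 UMIs and under 1% X-linked UMIs, the per-cell median was 0.144% in 246 members and 0.0498% in 195 later barcodes at 350.4 h. It was 0.309% in 10 members and 0.178% in 2667 later barcodes at 556.8 h, and 0.280% in 33 and 0.141% in 363 at 763.2 h. The later barcodes were deeper at 350.4 and 763.2 h, with medians of 85174 and 19005 UMIs against 13088 and 10806 in members. At 556.8 h they were shallower, with 7802 against 13548 UMIs.

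Within the members of at least 5000 UMIs, cells with a lower X-linked share held more late RNA, given here as a description across cells that share a library. Over the 353 such cells at 350.4 h, Spearman's rho of the X-linked share was -0.788 with the share of UMIs from the late pachytene and diplotene list, -0.774 with the axoneme list and 0.525 with the leptotene and zygotene list. It was 0.0792 with UMIs per cell. Over 50 cells at 763.2 h the 4 values were -0.679, -0.856, 0.768 and -0.355. Over 31 cells at 556.8 h they were -0.259, -0.377, 0.521 and -0.600, so depth moved with the X-linked share there. The values pool the 2 ranges described above.

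Members of 350.4 h were then compared with those of 556.8 and of 763.2 h. Both comparisons use the same 350.4 h cells, and a gene was called only where it passed 2-fold the same way against both. Of 9653 genes compared, 43 were higher at 350.4 h (0.445%) and 97 lower (1.00%). Against 556.8 h alone 0.860% were higher and 1.69% lower, and against 763.2 h alone 2.50% and 2.46%. Between the later libraries, 16 of 3263 genes were higher at 763.2 than at 556.8 h (0.490%) and 9 lower (0.276%). The 350.4 h sum was by far the largest, so a gene could enter through its 350.4 h count alone, and the counts of higher and lower genes should not be set against each other.

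Of the 97 lower genes 86 stood lower in later members than in the other barcodes of both later libraries, as did 2586 of all 9653 genes compared. Of the spermatid list, all 8 genes compared with 556.8 h were lower at 350.4 h, with a median log2 ratio of -4.74 beside 0.01 over all genes. All 12 compared with 763.2 h were lower too, with a median of -4.89 beside 0.11. Prm1, the first protamine, stood at 31.4 CPM in members of 350.4 h, 2413 at 556.8 h and 1834 at 763.2 h. In the other barcodes of these libraries it stood at 147, 11420 and 13922 CPM. The members' Prm1 therefore ran below the surrounding barcodes in each library, and the part of free RNA was not tested. The other 11 lower genes were Hspa5, Elavl3, Dynlt3, Rpgr, Ube2a, Ssr4, Zfy1, Zfy2, Usp9y and the predicted genes Gm595 and Gm26870. Of these, Hspa5, Elavl3 and Ssr4 were named by the rule for named genes and the others after their values were seen.

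Of the 43 higher genes, 9 stand on the lists of spermatogonia and somatic cells. The red blood cell list was higher in all 4 genes compared, and 1 cell held 5751 of the 5772 haemoglobin UMIs in the 483 members with under 1% X-linked UMIs. The spermatogonial list was higher in 2 of 10 genes, Uchl1 and Crabp1, and the Sertoli list in 1 of 10, Rhox5. The Leydig gene Cyp11a1 and the peritubular myoid gene Acta2 were each called as well. The spermatogonial list summed to 512 CPM at 350.4 h, 215 at 556.8 h and 72.0 at 763.2 h, and the Sertoli list to 1376, 354 and 983 CPM. The Leydig list summed to 60.2, 0 and 3.66 CPM, the peritubular myoid list to 56.6, 28.9 and 34.2 CPM, and the macrophage list to 1.23, 0 and 3.66 CPM. Listed at 0 in time order were 0, 3 and 6 of 13 spermatogonial genes, 0, 6 and 2 of 13 Sertoli genes, 0, 6 and 5 of 6 Leydig genes, 0, 5 and 3 of 6 myoid genes and 2, 7 and 6 of 7 macrophage genes. The later sums are small, and the part of these cells in the 43 genes was not tested. Without the 144, 1 and 5 members with 0.1% or more of UMIs from somatic lists, 35 of 9109 genes were higher (0.384%) and 89 lower (0.977%).

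The named genes were Tubb5 on the higher side and Hspa5, Elavl3 and Ssr4 on the lower side, all that met their rule. Tubb5 (chromosome 17), a beta tubulin, stood at 70.5 CPM at 350.4 h, 15.7 at 556.8 h and 9.77 at 763.2 h, with ratios of 4.48 (2.05 to 12.2) and 7.21 (3.64 to 16.8). Hspa5 (chromosome 2, 34771970 to 34777547, GRCm38), which encodes the main chaperone of the endoplasmic reticulum, stood at 866, 2657 and 1976 CPM, with ratios of 0.326 (0.305 to 0.348) and 0.438 (0.415 to 0.463). Elavl3 (chromosome 9), an RNA-binding protein gene known from neurons, stood at 29.6, 181 and 91.6 CPM, with ratios of 0.164 (0.125 to 0.217) and 0.324 (0.250 to 0.424). Ssr4 (X chromosome), a subunit of the complex that guides proteins into the endoplasmic reticulum, stood at 48.9, 215 and 123 CPM, with ratios of 0.227 (0.179 to 0.291) and 0.396 (0.319 to 0.497). In members with 1% or more X-linked UMIs Tubb5 stood at 201 CPM at 350.4 h. Hspa5, Elavl3 and Ssr4 were lowest at 350.4 h in both neighbouring stages as well, so these gaps were not particular to members. In time order Hspa5 stood at 756, 2119 and 1692 CPM in the earlier stage and at 322, 676 and 567 in the later. Elavl3 stood at 21.0, 35.8 and 49.4 CPM and at 3.49, 9.06 and 5.81 in the same order. Ssr4 stood at 123, 267 and 181 CPM and at 12.5, 30.1 and 20.2. The Hspa5 gap varied with depth. It stood at 818, 3344 and 3435 CPM in members of 5000 to 15000 UMIs, in time order. From 15000 UMIs it stood at 925, 1265 and 1300 CPM, and under 5000 at 361, 304 and 430 CPM. Ssr4 stood at 47.8, 28.1 and 92.1 CPM from 15000 UMIs. At 556.8 h these upper and lower sets held 5 and 4 cells.

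Fewer genes were called among members with under 1% X-linked UMIs. Of 7626 genes compared in these cells, 4 were higher at 350.4 h (0.0525%), all of them haemoglobin genes, and 34 lower (0.446%). All 34 stood below the level of the other barcodes in both later libraries. Of the 34, 33 were among the 97 found with all members, and the other was Akap12, named after its values were seen. The 2-fold limit left room for smaller differences: the interval lay wholly within 2-fold for 22.1% of 7626 genes against 556.8 h, where 14 cells were left, and for 55.3% of 7637 genes against 763.2 h. For the remaining genes the interval reached past 2-fold on at least 1 side. With at least 5000 UMIs as well (246, 10 and 33 cells), 4 of 7361 genes were higher (0.0543%) and 18 lower (0.245%). Among all members of at least 5000 UMIs, 0.465% were higher and 0.697% lower. Among those of 5000 to 15000 UMIs, 42 of 3922 were higher (1.07%) and 28 lower (0.714%), and none of these 42 was among the 43. Among the named genes, Tubb5 had 45 UMIs (7.46 CPM) in the 350.4 h members with under 1% X-linked UMIs, below the 50 needed. In members with under 1% Elavl3 stood at 32.2, 167 and 67.4 CPM, with ratios of 0.192 and 0.477, the first called and the second not. Ssr4 stood at 26.4, 110 and 67.4 CPM and Hspa5 at 905, 2158 and 1442 CPM, and neither was called against both.

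**Figure D3:**
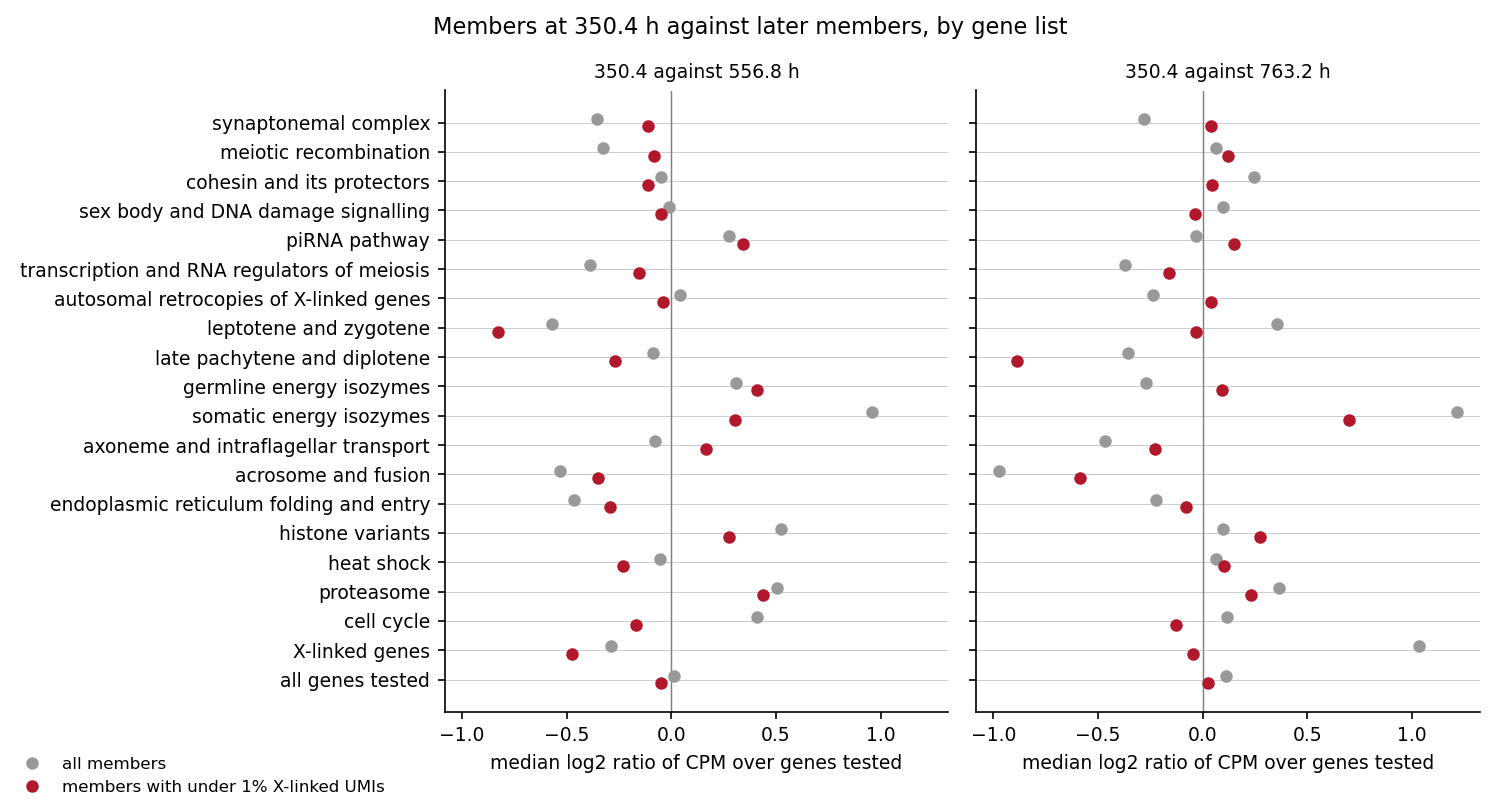
Median log2 ratio of CPM at 350.4 h against 556.8 h (left) and 763.2 h (right) over the genes compared in each list; grey points use all members and red points those with under 1% X-linked UMIs, a count of 0 being replaced by the floor of 3. With the red points the synaptonemal complex list lies at -0.11 and 0.04, beside -0.05 and 0.03 over all genes.

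The synaptonemal complex, recombination, piRNA, sex body, cohesin and axoneme lists had no call in members with under 1% X-linked UMIs. The share over all genes there was 0.0525% higher and 0.446% lower. A count of 0 in lists of this size is therefore near the background. Germline energy isozymes had 1 of 11 genes lower in these members and acrosome genes 1 of 12. All 11 synaptonemal complex genes, 21 recombination genes, 19 piRNA genes, 14 genes of the sex body and DNA damage signalling, 11 cohesin genes and 14 axoneme genes compared there were not called the same way against both times. Their medians against 556.8 and 763.2 h were -0.11 and 0.04 for the synaptonemal complex, -0.08 and 0.12 for recombination, 0.34 and 0.15 for the piRNA pathway, -0.05 and -0.04 for the sex body list, -0.11 and 0.04 for cohesins, and 0.16 and -0.23 for the axoneme. Sycp1, which encodes the zipper protein of the synaptonemal complex, stood at 3034, 3306 and 3262 CPM in time order, with ratios of 0.918 (0.844 to 0.999) and 0.930 (0.889 to 0.974). Mybl1 stood at 154, 150 and 164 CPM, with ratios of 1.03 (0.696 to 1.58) and 0.941 (0.766 to 1.17). Mael, a piRNA factor, stood at 647, 652 and 584 CPM. Of the retrocopies, autosomal copies of X-linked genes, none of 8 was called, and Rpl39l, a ribosomal protein copy, stood at 1380, 1189 and 1306 CPM.

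A few genes in these cells stood apart from 1 later library more than from the other. Ybx3, a DNA and RNA binding repressor of translation, stood at 354, 404 and 1035 CPM, with a ratio of 0.342 (0.313 to 0.374) against 763.2 h and 0.876 (0.690 to 1.13) against 556.8 h. Tcfl5, a transcription factor of spermatocytes, stood at 110, 104 and 255 CPM. Meiob, a single-strand DNA binding protein of recombination, stood at 172, 306 and 151 CPM, highest at 556.8 h. The leptotene and zygotene list had a median of -0.83 against 556.8 h and -0.03 against 763.2 h, and the late pachytene and diplotene list of -0.27 and -0.88. The single call in these 2 lists was Adam3, a sperm surface protease gene, at 18.6, 133 and 93.1 CPM. In the other barcodes Adam3 stood at 41.2, 449 and 490 CPM. The other genes given here were picked after their values were seen.

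A list of endoplasmic reticulum genes and a list of 6 sex-linked genes taken from the lower calls were higher in the members with 1% or more X-linked UMIs of the later libraries than in those of 350.4 h. Both lists were drawn up after the calls were seen, so they support nothing on their own. The summed X-linked share in these members was 2.18% at 350.4 h, 2.06% at 556.8 h and 1.67% at 763.2 h. They were chosen by that share, so it cannot show whether the X as a whole followed the lists. As given above, these members were of different kinds at 350.4 h and at the later times. The 18 genes of the list endoplasmic reticulum folding and entry summed to 5425 CPM at 350.4 h, 12077 at 556.8 h and 13238 at 763.2 h in these members. In members with under 1% they summed to 6780, 10110 and 7425 CPM, and in the later stage to 4092, 3700 and 3259 CPM. Hspa5 stood at 784, 3073 and 3674 CPM in members with 1% or more, and Calr, which encodes a calcium-binding chaperone, at 814, 2741 and 2805 CPM. Over all members, 2 of 18 genes were higher than in the later stage of the same library at 350.4 h, 13 at 556.8 h and 12 at 763.2 h. The shares over all genes were 7.17, 11.3 and 9.47%. Against the earlier stage none of the 18, 16 and 18 genes compared was higher, and 2, 0 and 0 were lower. The shares of all genes higher in that comparison were 16.8, 2.21 and 7.30%. Zfy2, a Y-linked zinc finger gene, stood at 23.1, 279 and 153 CPM in members with 1% or more and at 2.49, 17.3 and 3.21 CPM in those under 1%. Zfy1, its close copy on the Y, stood at 20.6, 202 and 123 CPM and at 1.16, 28.9 and 4.81 CPM. In the earlier stage Zfy2 stood at 3.51, 80.5 and 41.2 CPM, and in the later stage at 0.540, 12.8 and 5.53 CPM, so among these 4 sets it was highest in members with 1% or more. Reads of Zfy1 and Zfy2 can be hard to tell apart.

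**Figure D4:**
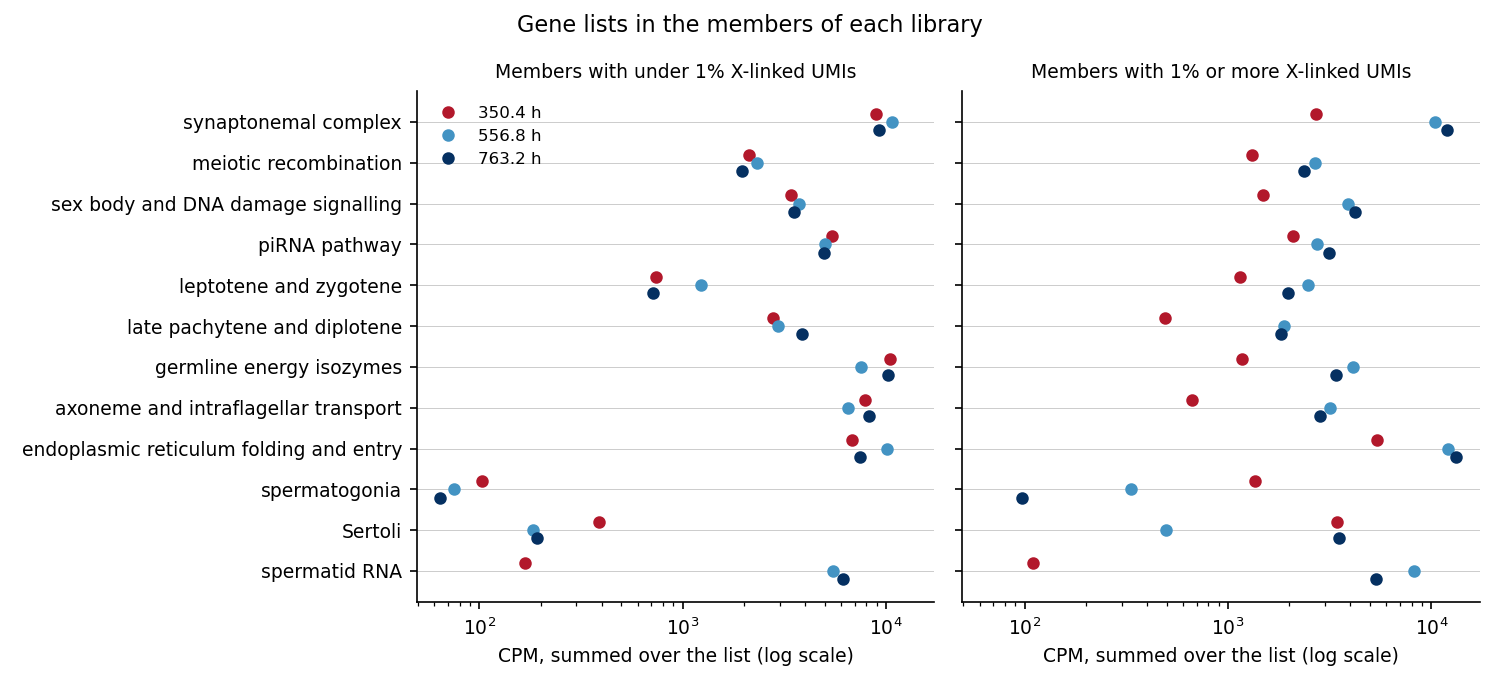
Summed CPM of 12 gene lists (logarithmic horizontal axis) in members with under 1% X-linked UMIs (left) and with 1% or more (right), 1 point per library, shifted vertically for sight. On the left spermatid RNA lies at 167, 5465 and 6153 CPM in time order and the synaptonemal complex at 8896, 10641 and 9233 CPM, while on the right the 350.4 h point of the synaptonemal complex lies at 2708 CPM and the later ones at 10408 and 11905 CPM.

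The remaining lists gave 0 to 2 calls each with all members, to be read beside the 0.445% of all genes that were higher and the 1.00% that were lower. In lists of this size such counts say little about a list. The proteasome list, to which Psma8 belongs, had 1 of 36 genes higher at 350.4 h, Psma7, and none lower. Heat shock genes had none of 15 called and histone variants none of 11. The somatic energy isozymes had 1 of 12 higher, Gapdh, and the germline ones 2 of 12 lower, Pgk2 and Gapdhs. Acrosome genes had 1 of 12 lower, Adam3, the transcription and RNA regulators of meiosis none of 19, and the apoptosis and p53 list none of 9. The cell cycle list had 1 of 21 higher, Ccnd1, and the dissociation response list 2 of 11, Fos and Junb. The retrocopies had 1 of 8 lower, again Pgk2, and their X-linked parents none of 6 called. Among members with under 1% X-linked UMIs the lists of proteasome, heat shock, histone variant, cell cycle and apoptosis genes had no call. Fos and Junb are early genes that respond to tissue digestion, and that list summed to 779 CPM in the 350.4 h members with 1% or more and to 72.4 CPM in those under 1%.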

How the data were processed

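Droplet single-cell RNA libraries of whole testis were used. The authors deposited raw UMI counts per gene and barcode, over 27998 features, and Cell Ranger 3.0.2 stands in the file headers. The submitters' processing notes list mm10 and Seurat 4.3.0.1, without saying what for. No setting for alignment or for calling cells was found in the labels. Groups came from the sample titles, 1 library each.

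The members, gene lists and rules were chosen with earlier results of these data known, and 2 lists were added after the calls were seen. The libraries of 350.4, 556.8 and 763.2 h held 7441, 9301 and 11987 barcodes with 96256872, 118147393 and 116745642 UMIs. Counts were summed over members per library and scaled to CPM. A ratio has an exact conditional binomial 95% interval, with 3 counts in place of 0, and a share an exact (Clopper-Pearson) interval. A gene was compared with at least 50 UMIs in 1 of 2 sums. No test was made. Chromosomes and positions came from GENCODE M21 (GRCm38), which placed 27645 features, 1084 of them on the X. Scrublet (scanpy 1.11.5) gave doublet scores, and no barcode was removed by them. The calling of genes was tested on simulated data.

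Named genes were up to 12 each way: called against both later times, with at least 50 UMIs and 50 CPM in each higher group and no less than in that library's other barcodes, without mitochondrial, ribosomal protein, haemoglobin, predicted and clone-named genes and the rule's genes. Alternatives changed the depth, mitochondrial and marker limits, doublets, scaling, cell weight, library background, late-list UMIs, count filter and fold limit. Settings on somatic genes, on 5000 to 15000 UMIs and on the X-linked share were chosen after seeing the data.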

Additional observations from a re-analysis of the deposited data

How the results depend on the processing

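No paired analysis was possible because each time has 1 library and the labels give no replicate numbers. For the same reason no replicate was left out, and intervals cover counting error only. The later sums are small, which limits every comparison with them. The settings on 5000 to 15000 UMIs, on somatic genes and on the X-linked share were added after seeing the data, and the cause of the changes below was not tested.

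The number of members at 350.4 h, 604 as reported, was 353 at 5000 UMIs or more, 152 at 5000 to 15000, 246 at 5000 or more with under 1% X-linked UMIs, and 3 with no UMI of the late pachytene and diplotene list. At 556.8 h the 35 members became 21 with at least 6 marker UMIs, 21 with all 3 marker genes detected, 14 with under 1% X-linked UMIs, 10 with that and 5000 UMIs, and 53 when each barcode was thinned to 3000 UMIs before the rule. At 763.2 h the 76 became 50 at 5000 UMIs or more, 50 with 6 marker UMIs, 39 with all 3 genes, 38 with no UMI of Acrv1, Spaca1 or Pdilt, 33 at 5000 to 15000 UMIs, 33 with 5000 UMIs and under 1% X-linked UMIs, and 197 when thinned. The setting without late-list UMIs left 0 members at 556.8 h and 0 at 763.2 h, so it gave no gene ratios.

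Genes higher at 350.4 h than at both later times numbered 43, and 27 at a mitochondrial share under 10%, 15 with 6 marker UMIs, 10 with all 3 genes detected, 4 under 1% X-linked UMIs, 4 with that and 5000 UMIs, 4 when thinned, 110 at 1.5-fold and 15 at 3-fold. Genes lower numbered 97, and 52 with 6 marker UMIs, 51 with all 3 genes, 28 at 5000 to 15000 UMIs, 34 under 1% X-linked UMIs, 18 with that and 5000 UMIs, 12 when thinned, 209 at a filter of 20 UMIs, 183 at 1.5-fold and 49 at 3-fold.

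Genes higher at 763.2 than at 556.8 h numbered 16, and 10 at 5000 UMIs or more, 9 at the lower mitochondrial limit, 8 with 6 marker UMIs, 10 with all 3 genes, 5 at 5000 to 15000 UMIs, 9 without members rich in somatic genes, 3 under 1% X-linked UMIs, 1 with that and 5000 UMIs, 1 when thinned, 86 with equal weight per member, 30 at a filter of 20 UMIs, 55 at 1.5-fold and 3 at 3-fold. Genes lower there numbered 9, and 3 with 6 marker UMIs, 14 with all 3 genes, 3 at 5000 to 15000 UMIs, 0 under 1% X-linked UMIs, 0 with that and 5000 UMIs, 0 when thinned, 15 with equal weight, 23 at a filter of 20 UMIs, 20 at 1.5-fold and 3 at 3-fold.

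The X-linked share of member UMIs at 350.4 h, 0.827%, was 0.865% at 5000 UMIs or more, 0.537% at 5000 to 15000, 0.780% without high doublet scores, 0.697% without members rich in somatic genes and 0.635% as a mean per member. At 556.8 h 1.26% became 1.30% at 5000 UMIs or more, 1.54% at 5000 to 15000 and 1.39% as a mean. At 763.2 h 0.603% became 0.871% at 5000 to 15000 UMIs, 0.536% without members rich in somatic genes and 0.678% as a mean. The medians of gene lists with all members were less stable in sign: 10 of 25 changed sign under at least 1 setting against 556.8 h and 13 of 25 against 763.2 h. Against 763.2 h the axoneme and intraflagellar transport median ran from -0.61 to 0.61, germline energy isozymes from -0.36 to 1.02, leptotene and zygotene from -1.12 to 0.94 and Sertoli from -0.60 to 2.60. The median of X-linked genes against 763.2 h was 1.03 with all members and -0.29 at 5000 to 15000 UMIs. The spermatid RNA medians stayed negative in all 14 settings. Of the 4 named genes, all 4 lost a call with all 3 marker genes detected and with under 1% X-linked UMIs, and 2 did at 5000 to 15000 UMIs. None did without high doublet scores, at 5000 UMIs or more, or with median-of-ratios scaling.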
